A study of Rattus norvegicus with 3 samples.

Results

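Fibroblast growth factor (FGF) signalling in the embryonic rat cortex was followed through 10 genes: 4 secreted ligands (Fgf8, Fgf17, Fgf18 and Fgf15), 3 inhibitors that the pathway induces against itself (Spry1, Spry2 and Dusp6), and 3 ETS transcription factors that it induces (Etv1, Etv4 and Etv5). These 10 genes were chosen by name from 29772 genes in the files, with earlier results on these cells known, so their levels are a description and carry no test. Of them, 9 are listed under these symbols. Fgf15 is listed as Fgf19, the symbol under which a RefSeq gene table gives Fgf15 as a synonym, and is called Fgf15 here.

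Freshly dissociated cells of the cerebral cortex of wildtype rat embryos were profiled in 3 droplet-based single-cell libraries, labelled embryonic day 14 (E14), 16 (E16) and 18 (E18). A label stands for a single library, no animal number, sex or strain is stated in the sources used here, and all groups share the genotype and the papain dissociation. With 1 library per label there is no replicate check. Every interval below is an exact 95% interval that covers counting error only, not variation between embryos or preparations.

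FGFs bind receptor tyrosine kinases on neighbouring cells and act largely through the ERK kinase cascade. In the early forebrain, Fgf8, Fgf17 and Fgf18, which form a subfamily, are made at the anterior midline, from where they pattern the cortex along its length. Cells that receive the signal induce Etv1, Etv4 and Etv5. They also induce Sprouty proteins, which dampen receptor signalling, and Dusp6, a phosphatase that switches off ERK.

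Counting unique molecular identifiers (UMIs), the libraries held from 62740631 to 80974234 UMIs. Barcodes with at least 1000 genes and at most 10% mitochondrial UMIs were kept, less predicted doublets, which left 4286 cells labelled E14, 4977 labelled E16 and 5431 labelled E18, with median depths between 10477 and 12264 UMIs. Across the libraries, 42 barcode sequences occurred in 2 of them. Levels are UMIs of a gene per 1000000 UMIs of a cell group (CPM). They are compared within a gene, not between genes.

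The labels and the stage genes did not run in the same order. Hmga2, which is high in early neural stem cells and declines with age, stood in radial glia at 12 CPM under the label E14, 224.0 under E16 and 21.0 under E18. Aldoc, an enzyme that marks late radial glia and astrocytes, stood at 739.9, 17.2 and 242.4 CPM. In the library labelled E16, 1 cell each fell in clusters named newborn and maturing excitatory neurons, against 1328 and 2004 under E14 and 1663 and 427 under E18. The text below compares libraries by their labels and assigns no age to them.

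Cells were grouped by clustering without the 10 genes and without the other pathway genes, and clusters were named from markers. Radial glia, the stem cells of the ventricular zone, numbered 403, 3005 and 1856 in label order, and were made of different clusters in each library: mainly clusters 15 and 21 under E14, clusters 1, 2 and 4 under E16, and clusters 7, 10 and 15 under E18. Of 27 clusters, 2 stayed unnamed and are called by their leading genes outside the pathway. The Zic4/Otx2/Dlx1 cluster held 4, 347 and 40 cells in label order, and the Calb1/Calb2/Lhx9 cluster held 1, 612 and 7. The latter cells also carried excitatory neuron markers: under E16 the newborn neuron list summed to 3530 CPM and the maturing neuron list to 5383 CPM, against 29.9 CPM for the GABAergic list. The intermediate progenitor list summed to 2003 CPM and the Cajal-Retzius list to 813.8 CPM (8 of 8 seen), and in the class with the best marker score 3 of 8 markers were raised, short of the share needed for a name. The near absence of named excitatory neurons under E16 therefore depends on how this cluster is named.

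Promoter sequences are shown for 3 response genes because they fall into 2 patterns in radial glia: Spry2 was highest under the label E14, whereas Spry1 and Dusp6 were highest under E16. RefSeq promoters (GRCr8, a later build than that of the deposited counts) were found for 7 of the 10 genes. Each line holds the 250 bases before the start site, 5′ to 3′ on the gene's strand, and capitals mark CCGGAA or GGAAG on either strand, letters that ETS factors can bind. For Spry2, the upstream one of 2 listed starts is given.
Spry2 (chr15:89111927-89112176, minus strand): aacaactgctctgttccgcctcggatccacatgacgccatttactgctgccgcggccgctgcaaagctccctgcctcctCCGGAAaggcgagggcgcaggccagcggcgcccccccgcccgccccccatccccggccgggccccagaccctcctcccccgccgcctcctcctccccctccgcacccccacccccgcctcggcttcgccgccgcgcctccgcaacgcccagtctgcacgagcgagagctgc
Spry1 (chr2:122485097-122485346, plus strand): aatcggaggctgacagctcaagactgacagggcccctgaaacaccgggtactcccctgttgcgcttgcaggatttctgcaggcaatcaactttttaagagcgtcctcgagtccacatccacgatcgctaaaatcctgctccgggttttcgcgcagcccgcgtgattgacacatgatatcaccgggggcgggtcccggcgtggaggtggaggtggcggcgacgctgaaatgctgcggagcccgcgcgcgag
Dusp6 (chr7:35979354-35979603, plus strand): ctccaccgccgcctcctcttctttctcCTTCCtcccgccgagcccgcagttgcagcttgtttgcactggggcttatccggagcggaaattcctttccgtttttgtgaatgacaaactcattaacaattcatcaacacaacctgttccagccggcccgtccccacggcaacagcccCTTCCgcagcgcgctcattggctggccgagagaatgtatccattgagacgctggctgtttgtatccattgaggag
The Spry2 window held 1 CCGGAA, 171 bases before the start, and the Dusp6 window held 2 matches to GGAAG. The Spry1 window held neither. Among 33469 rat promoter windows of the same length, 12.6% held CCGGAA and 63.3% held GGAAG. The window of the other Spry2 start held no CCGGAA and 1 GGAAG. Those of Etv1 and Etv5, which like Spry2 were highest under E14, held neither. A match is a description of the letters and not of binding.

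Fgf8 and Fgf17 were found mostly in the Zic4/Otx2/Dlx1 cluster. Under the label E16, 826 of 949 Fgf8 UMIs (87.0%) and 1391 of 1722 Fgf17 UMIs (80.8%) in kept cells lay in its 347 cells, which were 6.97% of that library. Under E18 its 40 cells, 0.737% of the library, held 86 of 107 Fgf8 UMIs (80.4%) and 170 of 188 Fgf17 UMIs (90.4%). Neither gene had a UMI in any of the 7100 barcodes labelled E14, where the cluster had only 4 cells.

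As levels, Fgf8 stood in this cluster at 206.0 CPM (192.1 to 220.5) under E16 and 161.0 CPM (128.7 to 198.8) under E18. Fgf17 stood at 346.8 CPM (328.8 to 365.5) and 318.2 CPM (272.1 to 369.8). For Fgf17 the intervals of the libraries overlap, and for Fgf8 they overlap only at their ends. Fgf18 was at 70.8 CPM (62.8 to 79.5) and 74.9 CPM (53.5 to 101.9), again overlapping. What differed between these libraries was the number of such cells more than the ligand level within them.

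Cells of the cluster carried radial glia genes, among them Sox2 at 386.0 CPM under E16. They also carried Otx2, a midline and choroid factor, at 212.7 CPM. The cluster was not uniform, and its make-up differed between libraries. Dlx1, a factor of the GABAergic lineage, stood at 139.1 CPM under E16 and 5.61 under E18, whereas Ttr, the choroid plexus transport protein, stood at 98.5 and 1647 CPM. It stayed unnamed because 1 of 12 markers of its best-scoring class was raised, short of the share needed for a name.

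**Figure D1:**
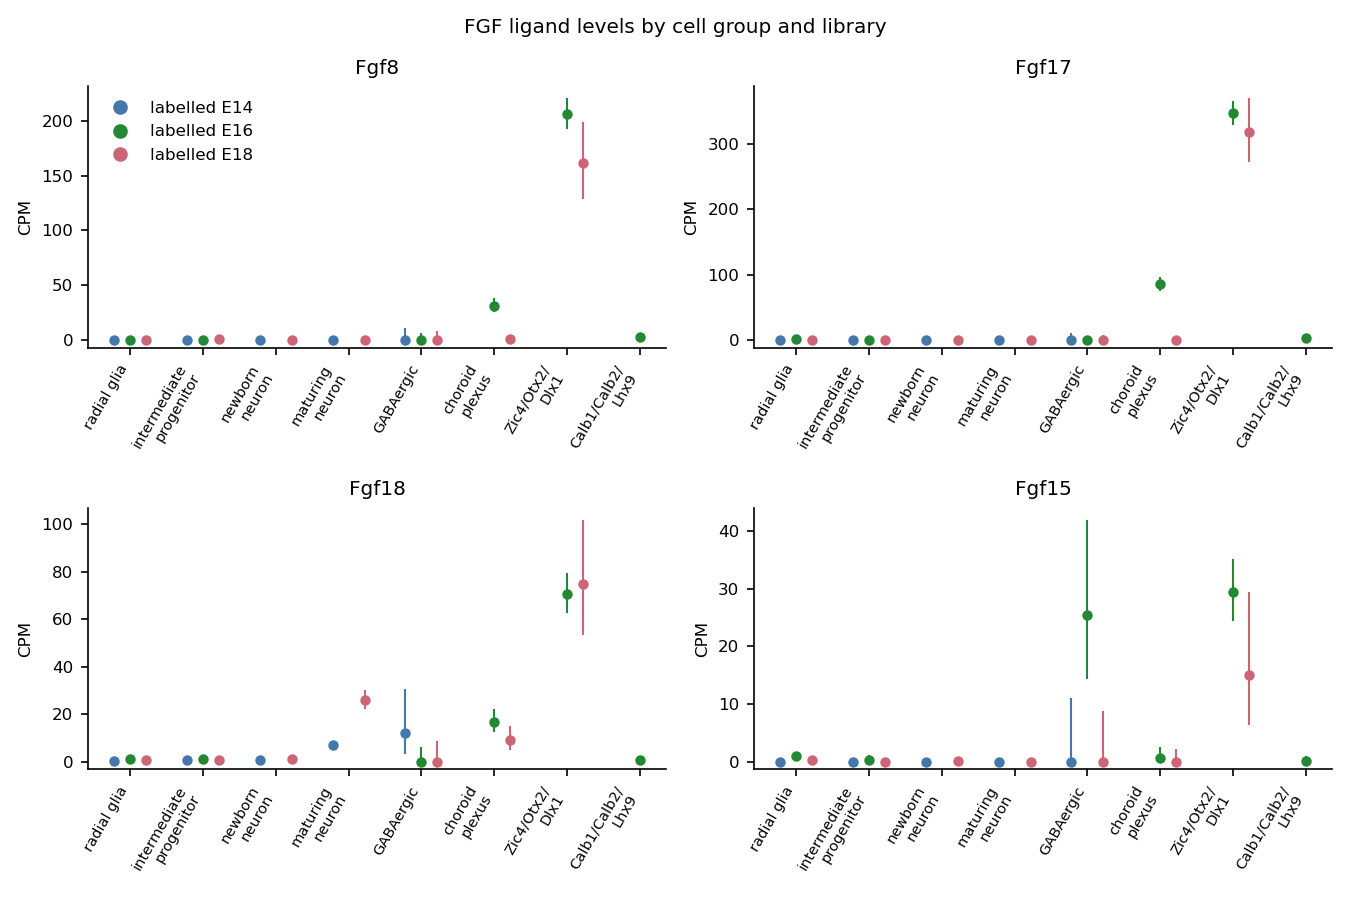
Levels of the 4 ligands (CPM, y axis) in 8 cell groups (x axis, groups of at least 40 cells) by library label; points are 1 library each and bars are exact Poisson 95% intervals. Fgf8 and Fgf17 stand above 100 CPM only in the Zic4/Otx2/Dlx1 cluster, while Fgf18 is also seen in maturing neurons and Fgf15 in GABAergic cells labelled E16.

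The 3 ligands of the Fgf8 subfamily were often, but not always, detected in the same cells. In the 347 cells labelled E16, 86 had an Fgf8 UMI, 100 had an Fgf17 UMI and 63 had both, which is 73.3% of the Fgf8 cells and 63.0% of the Fgf17 cells. Of cells without Fgf8, 14.2% had Fgf17. Fgf18 was found in 64 cells, of which 55 had Fgf8 and 59 had Fgf17, and it was seen in 3.45% of the cells without Fgf8. Under E18, 8 of the 13 Fgf8 cells also had Fgf17. UMIs were concentrated: a positive cell labelled E16 held 9.60 Fgf8 UMIs on average and at most 67.

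Detection of Fgf15 did not follow theirs. Fgf15 was found in 72 of the same 347 cells. Of the Fgf8 cells 22.1% had it, against 20.3% of the cells without Fgf8. By level, cells with Fgf15 had Fgf8 1.27-fold (1.09 to 1.48) and Fgf18 1.37-fold (1.05 to 1.77) higher, and Fgf17 lower (0.805, 0.705 to 0.917). Fgf15 stood at 29.4 CPM (24.4 to 35.2) in the cluster under E16 and 15 CPM (6.46 to 29.5) under E18. The E18 value came from 8 UMIs in 2 cells, and without the cell that held 7 of them it was 1.93 CPM (0.0489 to 10.8). The only other group above 5 CPM was the GABAergic lineage labelled E16, at 25.5 CPM (14.3 to 42.0) from 15 UMIs in 74 cells. No barcode labelled E14 had a Fgf15 UMI.

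Outside that cluster, the choroid plexus cells labelled E16 held most of the other Fgf8 and Fgf17 UMIs of that library. Their 152 cells had Fgf8 at 31.4 CPM (25.3 to 38.6) and Fgf17 at 85.2 CPM (74.8 to 96.6), and 15.8% of them had a UMI of either gene. A single cell held 110 of the 244 Fgf17 UMIs, and without it Fgf17 stood at 47.5 CPM (39.8 to 56.2). The 53 choroid plexus cells labelled E18 held 2 and 1 UMIs. Intermediate progenitors labelled E18 held 11 Fgf8 UMIs (10.3% of that library's), 7 of them in 1 cell, and 8 Fgf17 UMIs (4.26%). In the Calb1/Calb2/Lhx9 cluster, Fgf8 stood at 2.69 CPM and Fgf17 at 3.58 CPM, from 5 of 612 cells, and without the highest cell of each gene they stood at 0.719 and 1.08 CPM.

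Radial glia themselves held almost no Fgf8 or Fgf17. To compare shares at 1 depth, each cell was thinned to 2000 UMIs, which left out 4, 20 and 16 shallower cells in label order. A UMI of Fgf8 or Fgf17 then remained in 0 of 399 radial glia with the label E14 (a count of 0 here allows up to 0.752%), in 0.369% (0.184 to 0.658) of 2985 labelled E16 and in 0.0543% (0.00138 to 0.302) of 1840 labelled E18. Without thinning the shares were 0%, 1.33% and 0.269%. The order of E16 and E18 turned with no doublet removal, at 0.0975% and 0.157% after thinning. In vascular, microglial and erythroid cells, which should lack both genes, the share was 0 of 229 after thinning, which allows 1.31%, and 1.75% before it, at a median of 28832 UMIs against 13558 in radial glia labelled E16. The background cells are too few to set a limit below the radial glia shares, which were therefore not told apart from background. The UMIs were uneven: of 59 Fgf17 UMIs in radial glia labelled E16, 50 lay in cluster 1, at 3.38 CPM (2.51 to 4.45), against 0.313 CPM (0.102 to 0.730) in cluster 2 and 0.263 CPM (0.0717 to 0.673) in cluster 4, and a single cell held up to 9. Erythroid cells of that library had Fgf17 at 1.47 CPM (0.538 to 3.19). Thinned shares in the Zic4/Otx2/Dlx1 cluster were 25.6% (21.1 to 30.5) and 33.3% (19.1 to 50.2) under E16 and E18.

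Fgf18 had a separate source in neurons. In maturing excitatory neurons it stood at 7.10 CPM (6.18 to 8.13) under E14 and 25.8 CPM (22 to 30.2) under E18, a 3.64-fold difference (2.95 to 4.49). These neurons held 210 of the 232 Fgf18 UMIs labelled E14 (90.5%) and 162 of 268 labelled E18 (60.4%). In newborn neurons it was at 0.940 and 1.34 CPM, and in radial glia at 0.172, 1.12 and 0.620 CPM in label order. Thinned shares of maturing neurons with a Fgf18 UMI were 1.15% (0.732 to 1.72) and 4.77% (2.94 to 7.28), against 8.03% and 25.8% before thinning, and none of the 229 background cells had one at either depth. The limit of 1.31% that this allows lies above the thinned share under E14 and below its share before thinning, at which the background cells were the deeper ones (28832 against 14222 UMIs). The background cells are pooled over libraries, and 124 of them are erythroid cells labelled E16. Only 7 endothelial, 7 mural, 13 microglial and 1 erythroid cells carried the label E14, too few to set a limit for that library. Further Fgf18 UMIs lay in GABAergic cells labelled E14, at 12 CPM (3.27 to 30.8) from 4 UMIs, and Cajal-Retzius cells labelled E14 also held 4. Choroid plexus cells held 48 UMIs (12.1%) under E16, at 16.8 CPM (12.4 to 22.2), and 15 UMIs under E18.

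Within the maturing neurons labelled E14, Fgf18 was higher in cluster 9, at 14.3 CPM (12.2 to 16.6), than in cluster 0, at 2.19 CPM (1.54 to 3.03). Cluster 9 had high Bcl11b (713.8 CPM, against 112.5 in cluster 0) and Fezf2 (419.0 against 95.7), factors of deep-layer neurons. The 407 neurons of cluster 16 labelled E18 had Fgf18 at 26.3 CPM (22.4 to 30.8), with Bcl11b at 1120 CPM. The 53 cells of cluster 16 labelled E14 were an exception: Bcl11b was at 635.8 CPM, yet Fgf18 was at 1.87 CPM (0.226 to 6.74) from 2 UMIs. Of all genes, 3.19% of 9486 were at least 2-fold higher in maturing neurons under E18 than under E14, and 1.82% were lower. Of the 10 genes, 3 (Fgf18, Spry2 and Dusp6) reached 5 CPM on average there and 1 (Fgf18) was past 2-fold. The maturing neurons compared are different clusters, 0 and 9 under E14 and 16 under E18, and the share of each kind of neuron moves with the difference between libraries.

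Dusp6 shared that pattern in neurons. It was at 64.6 CPM (60.1 to 69.3) in cluster 9 and 21.8 CPM (19.6 to 24.2) in cluster 0 under E14, and at 63.1 CPM (56.9 to 69.7) in cluster 16 under E18. Cluster 9 and cluster 16, compared across libraries, had overlapping Dusp6 intervals, while their Fgf18 intervals did not overlap. Over all maturing neurons, Dusp6 stood at 38.9 CPM (36.7 to 41.2) under E14 and 63.3 CPM (57.3 to 69.9) under E18. The 53 cells of cluster 16 labelled E14 were low in Dusp6 too, at 12.1 CPM (6.46 to 20.8), and high in Neurod1, a factor of newborn neurons, at 550.8 CPM.

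In radial glia, the response genes split into 2 patterns. Spry2 stood at 35.2 CPM (30.6 to 40.4) under E14, 4.49 CPM (3.90 to 5.14) under E16 and 7.05 CPM (6.06 to 8.15) under E18. Etv1 stood at 145.0 CPM (135.3 to 155.1) under E14, 32.4 CPM (30.8 to 34.1) under E16 and 52.8 CPM (50 to 55.7) under E18. Etv5 stood at 69.0 CPM (62.5 to 76.1) under E14, 15.4 CPM (14.3 to 16.6) under E16 and 25.3 CPM (23.4 to 27.3) under E18. All 3 were highest under E14 and lowest under E16, with no overlap of intervals between any libraries. For Spry2 the order of E16 and E18 depended on the clustering: the log2 ratio of E18 over E16 was 0.55, and -0.09 with the libraries clustered separately.

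Etv4 was also highest under E14, at 14.3 CPM (11.4 to 17.7), against 2.63 CPM (2.18 to 3.14) under E16 and 1.94 CPM (1.44 to 2.55) under E18, where the last 2 intervals overlap. Dusp6 was instead highest under E16. It stood at 3.09 CPM (1.83 to 4.89) under E14, 16.7 CPM (15.5 to 17.9) under E16 and 3.10 CPM (2.46 to 3.86) under E18, so that only the library labelled E16 stood apart. Spry1 followed Dusp6 at lower values, at 0.859 CPM (0.279 to 2.0) from 5 UMIs under E14, 6.43 CPM (5.72 to 7.2) under E16 and 2.44 CPM (1.88 to 3.12) under E18.

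**Figure D2:**
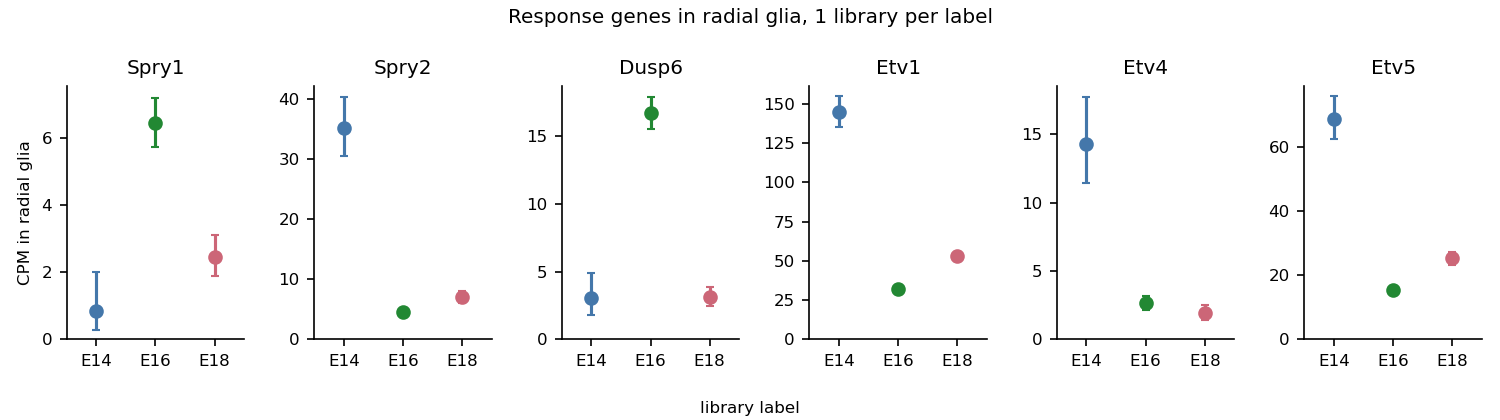
Levels of the 6 response genes in radial glia (CPM, y axis, each panel from 0) by library label (x axis); each point is 1 library and bars are exact Poisson 95% intervals. Spry2, Etv1, Etv4 and Etv5 are highest in the library labelled E14, while Spry1 and Dusp6 are highest in that labelled E16.

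Counted by a 2-fold limit on the log2 scale, with 1 CPM added and at least 5 CPM on average, 5 of the 10 genes could be compared between the labels E16 and E14. Of these, 1 (Dusp6) was higher under E16, where 2.42% of 9903 genes were, and 4 (Spry2, Etv1, Etv4 and Etv5) were lower, where 7.47% of all genes were. Between E18 and E14, 4 genes reached the minimum and all 4 (Spry2, Etv1, Etv4 and Etv5) were lower under E18, against 3.33% of 9902 genes, while none was higher, against 1.03%. Between E18 and E16, 1 of 4 genes (Dusp6) was lower, against 0.671% of 9684 genes, and none was higher, against 2.03%. These contrasts share libraries, and the genes were named with such values known, so nothing is read from the counts beyond their size.

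As ratios, Spry2 was 7.85-fold higher (6.44 to 9.57) under E14 than under E16 and 4.99-fold higher (4.07 to 6.13) than under E18. For Etv5 the ratios were 4.47 (3.95 to 5.06) and 2.73 (2.41 to 3.10), and for Etv1 4.48 (4.11 to 4.87) and 2.74 (2.52 to 2.99). Dusp6 was 5.40-fold higher (3.39 to 9.16) under E16 than under E14 and 5.38-fold higher (4.27 to 6.87) than under E18. The median log2 ratio over Spry1, Spry2, Etv4, Etv5 and Dusp6 was -2.07 for E16 over E14, -1.42 for E18 over E14 and -0.31 for E18 over E16, beside -0.12, -0.06 and 0.07 over all genes compared. Etv1 was left out of that median because it also marks layer 5 neurons. With Etv1 added, a choice made after the values were seen, the medians were -2.08, -1.43 and 0.12, so the sign for E18 over E16 turned. Genes on either side of 0 lie behind these medians. Spry1 and Dusp6 were above 0 in the first contrast. In the second, Spry1 was above 0 while Dusp6 had a ratio of 1.00 (0.596 to 1.78).

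The radial glia of the libraries differed in other ways that move with these values. The radial glia marker list summed to 9548 CPM under E14, 4207 under E16 and 5868 under E18, with all 10 markers seen in each. The maturing neuron list summed to 380.1, 92.3 and 126.7 CPM, with 10, 11 and 11 of 11 markers seen, and the intermediate progenitor list to 1451, 563.8 and 904.3 CPM. The cortical hem-like list ran the other way, at 8.93, 54.2 and 26.5 CPM (5, 9 and 9 of 9 seen), and so did the erythroid list, at 19.1, 57.4 and 35.8 CPM (4, 9 and 8 of 9 seen), an order also seen for Spry1. The GABAergic list summed to 250.6, 121.0 and 148.9 CPM. The oligodendrocyte precursor list stood at 19.1, 1.19 and 3.80 CPM (7, 7 and 5 of 7 seen), in the order of Spry2, Etv1 and Etv5. The newborn neuron list, at 233.6, 136.4 and 155.6 CPM, had that order too. The mural list (13.2, 4.59 and 4.49 CPM) had the order of Etv4, and the meningeal list (3.95, 10.1 and 5.73 CPM) that of Spry1. Their part in the results was not tested. In maturing neurons labelled E14, Spry1 stood at 4.43, Spry2 at 14.8, Etv1 at 4.67, Etv4 at 0.169, Etv5 at 4.70 and Dusp6 at 38.9 CPM.

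Radial glia cluster 15 held many cells of 2 libraries, 228 labelled E14 and 280 labelled E18, beside 3 labelled E16. This allows a comparison of E18 with E14 within 1 cluster. There, Etv5 was at 50.4 CPM under E14 and 12.9 under E18, a ratio of E18 over E14 of 0.256 (0.175 to 0.366). Etv1 was at 124.3 and 43.9 CPM (0.353, 0.288 to 0.432) and Spry2 at 28.2 and 6.61 CPM (0.234, 0.136 to 0.385). Etv4 was at 15.5 CPM and, from 3 UMIs, 0.991 CPM (0.0641, 0.0128 to 0.199). Over all radial glia the ratios were 0.366 for Etv5, 0.364 for Etv1, 0.20 for Spry2 and 0.136 for Etv4, so all 4 genes were lower under E18 both within the cluster and overall. Dusp6 was at 2.69 and 2.64 CPM (0.983, 0.322 to 3.00), and Spry1 at 1.34 and 2.31 CPM (1.72, 0.437 to 8.01), with intervals that span 1.

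Within a library, Etv5 varied among radial glia clusters. Under E18 it stood at 34.5 CPM (31.3 to 38.0) in cluster 10, led by mitosis genes such as Nusap1 and Top2a, at 18.5 CPM (15.9 to 21.5) in cluster 7, led by Ung, Mfge8 and Lpar1, and at 12.9 CPM (9.16 to 17.6) in cluster 15, led by Mfge8 and Fabp7. Under E16 it stood at 19.5 CPM (17.3 to 21.8) in the mitotic cluster 4, led by Ube2c and Ccnb1, at 14.4 CPM (12.6 to 16.4) in cluster 2, led by histone genes, and at 12.8 CPM (11.0 to 14.7) in cluster 1, led by Ung, Hmga2 and the replication gene Cdc6. Under E14 it stood at 92.0 CPM (80.5 to 104.7) in cluster 21, led by Tnc, Mfge8 and histone genes, and at 50.4 CPM (42.7 to 59.1) in cluster 15, so the higher cluster there was not one led by mitosis genes. Etv1 was highest in the same clusters, at 59.1 CPM in cluster 10, 41.4 CPM in cluster 4 and 163.1 CPM in cluster 21. Spry1 was not: under E16 it was at 10.3 CPM (8.70 to 12) in cluster 1 and at 4.47 CPM (3.47 to 5.67) in cluster 4.

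Along the named excitatory classes labelled E14 and E18, the ETS factors were highest in radial glia. Etv5 stood at 69.0 CPM in radial glia, 14.7 in intermediate progenitors, the transit-amplifying cells, and 2.91 in newborn neurons under E14, and at 25.3, 4.10 and 0.738 CPM under E18. It was then 4.70 and 5.27 CPM in maturing neurons. Etv4 was at 14.3, 1.51, 0.188 and 0.169 CPM over these 4 stages under E14. Between radial glia and newborn neurons, 18.1% of 10080 genes were at least 2-fold higher in radial glia and 12% lower under E14, and 17.3% and 12.6% of 9922 genes under E18.

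Etv1 and Etv5 differed along the lineage. In intermediate progenitors Etv1 stood at 44.2 CPM (38.7 to 50.3) under E14, 52.1 CPM (45.7 to 59.1) under E16 and 36.1 CPM (32.9 to 39.4) under E18. Relative to radial glia of the same library it was lower under E14 (44.2 against 145.0 CPM) and E18 (36.1 against 52.8), and higher under E16 (52.1 against 32.4). Etv5 in intermediate progenitors labelled E16 was lower than in radial glia, at 4.99 against 15.4 CPM. Newborn neurons had Etv1 at 4.23 and 6.51 CPM under E14 and E18. Maturing neurons had Etv1 at 4.67 CPM (3.92 to 5.52) under E14 and, from 3 UMIs, at 0.479 CPM (0.0987 to 1.40) under E18. For Etv5 the levels there were 4.70 CPM (3.95 to 5.55) and 5.27 CPM (3.62 to 7.39), with overlapping intervals.

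Within intermediate progenitors, Etv5 and Dusp6 were past 2-fold between libraries among the genes with at least 5 CPM on average. Spry1, below that minimum, was at 3.04 CPM under E16 and, from 4 UMIs, 0.756 CPM under E14, a ratio of 4.02 (1.26 to 16.8). Between E16 and E14, Dusp6 was at 11.1 and 4.91 CPM, 2.25-fold (1.38 to 3.76) higher, and Etv5 at 4.99 and 14.7 CPM, 2.95-fold (1.84 to 4.93) lower. These were 1 gene higher and 1 lower of 4 at the minimum, where 3.06% of 9509 genes were higher and 7.75% lower. Between E18 and E14, only Etv5 of 3 was past 2-fold, lower at 4.10 CPM, where 0.905% of 9503 genes were higher and 2.01% lower. Between E18 and E16, only Dusp6 of 3 was past 2-fold, lower at 2.35 CPM, where 2.70% of 9296 genes were higher and 1.28% lower. Spry2 stood at 11, 15.4 and 11.3 CPM in label order. Clusters 3, 12 and 14 made up this class in unequal shares: cluster 3 held 58.8% of it under E14, 15% under E16 and 50.7% under E18. For E16 over E14, Dusp6 had a ratio of 1.21 (0.678 to 2.24) in cluster 12 and 2.94 (0.832 to 15.9) in cluster 14, and 0 against 4 UMIs in cluster 3, so no cluster by itself showed the difference beyond counting error. Etv5 was lower under E16 in each cluster, with ratios of 0.480 (0.229 to 0.987) in cluster 12 and 0.131 (0.0525 to 0.286) in cluster 14, and 0 against 22 UMIs in cluster 3. For E18 over E16, Dusp6 had ratios of 0.154 (0.0707 to 0.309) in cluster 12 and 0.0406 (0.000964 to 0.264) in cluster 14, while cluster 3 had 19 UMIs in 601 cells against 0 in 60 cells, a ratio with a lower limit of 0.451.

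**Figure D3:**
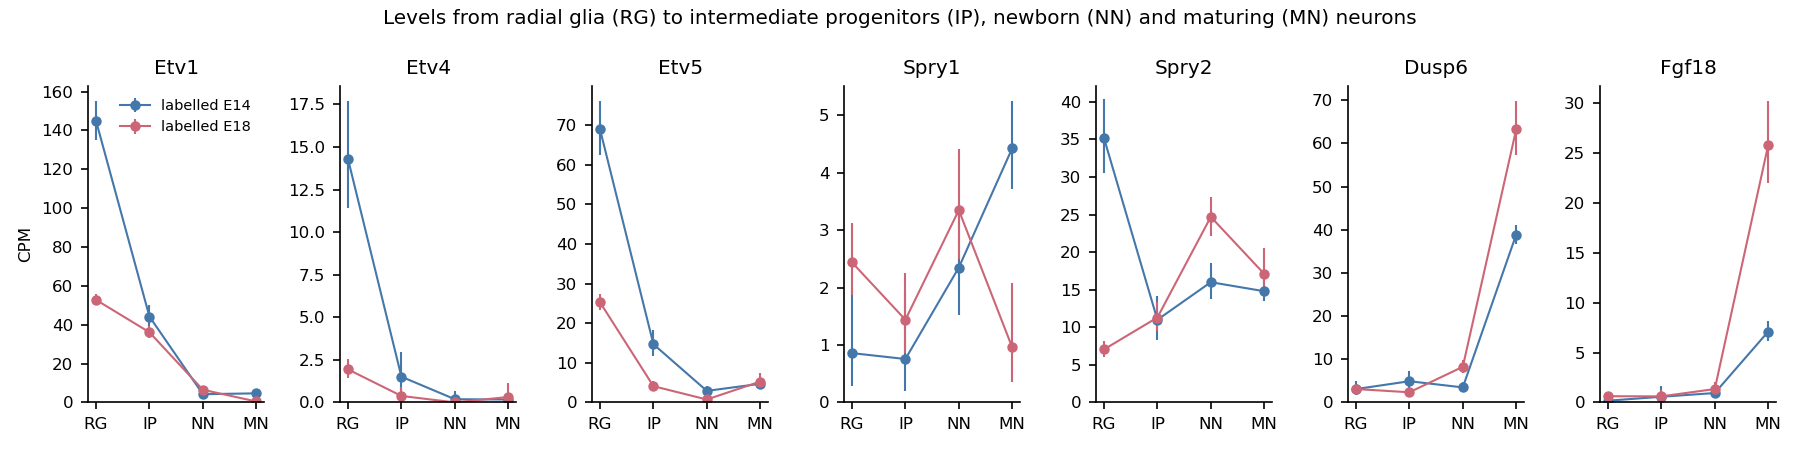
Levels (CPM, y axis, each panel from 0) in radial glia (RG), intermediate progenitors (IP), newborn neurons (NN) and maturing neurons (MN) of the libraries labelled E14 and E18; bars are exact Poisson 95% intervals. Etv1, Etv4 and Etv5 are highest in radial glia, while Dusp6 and Fgf18 are highest in maturing neurons.

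Spry2 was not confined to progenitors. In newborn neurons it stood at 16 CPM (13.7 to 18.6) under E14 and 24.7 CPM (22.2 to 27.3) under E18. Radial glia of the library labelled E18 had less, at 7.05 CPM, whereas those labelled E14 had more, at 35.2 CPM. Among newborn neurons labelled E18 it was at 31.5 CPM (27.5 to 36.0) in cluster 5, which had high Neurod1 (923.8 CPM) and low Mapt (68.3 CPM), a cytoskeletal gene of maturing neurons, and at 19.0 CPM (16.1 to 22.3) in cluster 6, with Mapt at 513.1 CPM. Under E14 the values were 22.5 CPM (18.1 to 27.6) in cluster 13 and 11.8 CPM (9.35 to 14.8) in cluster 8, which had Mapt at 81.1 and 457.5 CPM. In both libraries the less mature newborn cluster thus had more Spry2.

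Dusp6 ran the other way in these newborn clusters. Under E18 it was at 2.20 CPM (1.23 to 3.63) in cluster 5 and 13.5 CPM (11.0 to 16.3) in cluster 6. Under E14 it was at 1.95 CPM (0.844 to 3.85) in cluster 13 and 4.46 CPM (2.99 to 6.41) in cluster 8, with overlapping intervals. Between E18 and E14, newborn neurons as a whole had Dusp6 at 8.25 and 3.48 CPM, 2.37-fold (1.63 to 3.52), the only one past 2-fold of 3 genes at the minimum, where 1.52% of 9378 genes were higher and 2.15% lower. Over the lineage, maturing neurons held 1150 of 1401 Dusp6 UMIs labelled E14 (82.1%) and 397 of 756 labelled E18 (52.5%). Outside the lineage, 7 endothelial cells labelled E14 held 128 Dusp6 UMIs (9.14%).

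The Zic4/Otx2/Dlx1 cluster, where the ligands lay, had all 6 response genes above the radial glia of the same library under E16. Spry1 stood there at 115.4 CPM (105.2 to 126.5) against 6.43 in radial glia, 18.0-fold (15.5 to 20.8). Spry2 was at 54.9 CPM (47.8 to 62.6) against 4.49, 12.2-fold (10.1 to 14.9), and Etv4 at 32.9 CPM (27.5 to 39.0) against 2.63, 12.5-fold (9.71 to 16.1). Dusp6 was at 125.2 CPM (114.5 to 136.6) against 16.7, 7.50-fold (6.69 to 8.40). Etv5 (65.3 against 15.4 CPM) and Etv1 (102.7 against 32.4 CPM) were 4.23-fold (3.66 to 4.88) and 3.17-fold (2.84 to 3.54) higher. All 6 response genes were past 2-fold, where 5.04% of 9953 genes were higher by that much and 2.15% lower. For Etv1 (145.0 CPM) and Etv5 (69.0 CPM), radial glia labelled E14 stood higher than the cluster labelled E16, with overlapping intervals for Etv5.

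Under E18, Spry1 stood at 153.5 CPM, Spry2 at 56.1, Etv4 at 29.9 and Dusp6 at 35.6 CPM in the 40 cells. Their ratios to radial glia of that library were 62.9 (44.7 to 88.7), 7.96 (5.22 to 11.8), 15.5 (8.22 to 27.6) and 11.5 (6.57 to 19.1). Without the cell highest in Etv4, that gene stood at 17.3 CPM (7.90 to 32.8). Etv1 (1.42, 1.01 to 1.94) and Etv5 (1.56, 0.956 to 2.40) did not reach 2-fold, where 12.2% of 10192 genes were higher by that much and 10.3% lower. Of the 6, Dusp6 had the largest ratio between the cluster's 2 libraries, at 125.2 CPM under E16 and 35.6 CPM (21.4 to 55.5) under E18.

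Within that cluster, cells with ligand UMIs had more of the feedback inhibitors Spry1, Spry2 and Dusp6. Under E16, 123 cells had a UMI of Fgf8 or Fgf17 and 224 had none, with median depths of 11067 and 10540 UMIs. Spry1 stood at 219.3 CPM in the first and 54.6 CPM in the second, 4.02-fold (3.28 to 4.94). Spry2 was at 97.2 and 30.1 CPM, 3.23-fold (2.43 to 4.33), and Dusp6 at 179.5 and 93.3 CPM, 1.92-fold (1.61 to 2.30). Il17rd, an inhibitor of FGF receptor signalling outside the 10 genes, was at 130.9 and 34.0 CPM, 3.85-fold (2.97 to 5.02). It is 1 of 10 other feedback inhibitors that were listed. At least 2-fold higher were 3.40% of 10116 genes, and at least 1.5-fold higher were 9.74%.

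The ETS factors differed less there. Etv4 was at 43.9 and 26.5 CPM, 1.66-fold (1.16 to 2.36), and Etv5 at 72.2 and 61.3 CPM, 1.18-fold (0.912 to 1.52), an interval that spans 1. Etv1 was lower in the cells with ligand UMIs, at 71.5 against 121.0 CPM (0.591, 0.469 to 0.740). Fgf18 was almost wholly in the first group, with 281 of 284 UMIs.

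**Figure D4:**
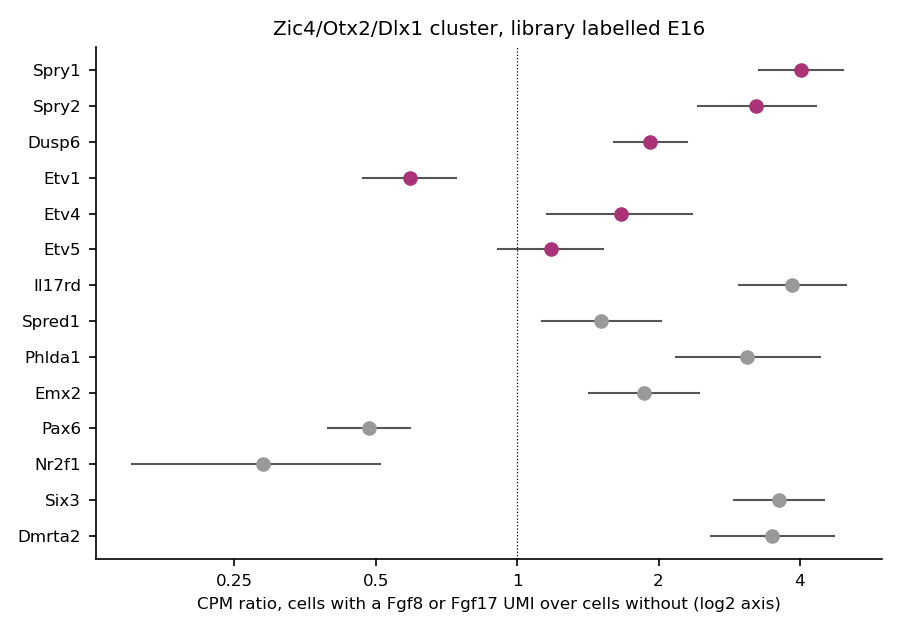
CPM ratio (x axis, log2 scale) of genes in the 123 cells with a Fgf8 or Fgf17 UMI over the 224 cells without, in the Zic4/Otx2/Dlx1 cluster labelled E16; lines are exact 95% counting intervals, and darker purple points are genes among the 10. Spry1, Spry2 and Il17rd stand above 3, Etv5 spans 1, and Etv1, Pax6 and Nr2f1 stand below 1.

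These 2 groups of cells also differed in identity. GABAergic lineage markers summed to 224.7 CPM in the cells with ligand UMIs (8 of 12 markers seen) and 792.9 CPM in those without (11 of 12 seen), and Dlx1 stood at 2.70 and 219.1 CPM. Radial glia markers summed to 2706 and 3985 CPM, all 10 seen in both, and maturing neuron markers to 121.5 and 444.9 CPM, 10 of 11 seen in both. The cortical hem-like list was higher in the cells with ligand UMIs, at 395.4 against 163.3 CPM, all 9 seen in both. Its part in the result, and that of the maturing neuron list, was not tested. When only cells with no UMI of Dlx1 or Dlx2 were compared, 117 against 150, the ratios were 3.80 (3.03 to 4.80) for Spry1, 3.04 (2.22 to 4.19) for Spry2, 1.77 (1.46 to 2.16) for Dusp6 and 3.52 (2.65 to 4.73) for Il17rd. For Etv4 the ratio became 1.42 (0.977 to 2.08), which spans 1. This comparison was added after the values were seen.

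Among the area factors of the cortex, Six3, an anterior forebrain factor, was at 174.1 CPM in cells with ligand UMIs and 48.2 CPM in those without, 3.61-fold (2.90 to 4.51). Dmrta2 was 3.49-fold (2.59 to 4.73) and Emx2 1.86-fold (1.42 to 2.44) higher. Pax6, at 86.4 against 178.4 CPM (0.484, 0.395 to 0.591), and Nr2f1, a factor of caudal cortex, at 9.45 against 32.8 CPM (0.288, 0.151 to 0.511), were lower. Lhx2 (0.895, 0.740 to 1.08), Nr2f2 (0.776, 0.505 to 1.17) and Bmp4 (0.900, 0.643 to 1.25) had intervals that span 1. Sp8 and Wnt3a had 1 and 4 UMIs in the cells with ligand UMIs, too few to compare. The 10 leading genes of the cells with ligand UMIs were Fgf18, Scx, Maf, LOC102556108, Fam81a, LOC100910558, Six6, LOC108351167, Pmaip1 and Irs4. Scx, a basic helix-loop-helix factor, was at 99.9 against 1.19 CPM and Maf, a bZIP factor, at 238.2 against 15.8 CPM.

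Cells with a Fgf15 UMI were compared in the same way. Against the 275 cells without, the 72 cells with Fgf15 had Spry1 at 103.1 and 119.5 CPM (0.863, 0.686 to 1.08) and Spry2 at 65.7 and 51.3 CPM (1.28, 0.944 to 1.72), both spanning 1. Etv4 was at 35.4 and 32.1 CPM (1.10, 0.727 to 1.64). Etv5 was at 96.1 and 55.3 CPM (1.74, 1.34 to 2.25). Dusp6 was higher (1.29, 1.06 to 1.57) and Etv1 lower (0.736, 0.569 to 0.942), the same directions as in the cells with Fgf8 or Fgf17. Mki67, a proliferation gene, stood at 451.0 and 257.8 CPM in these groups and Gad2, a gene of GABA synthesis, at 2.02 and 70.8 CPM. The whole GABAergic list differed less, at 346.8 and 660.2 CPM, and its member Gsx2 stood at 28.3 and 25.5 CPM, with overlapping intervals. The radial glia list summed to 4287 and 3259 CPM, and the intermediate progenitor list to 591.6 and 1009 CPM. Their part in the result was not tested.

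The 40 radial glia labelled E16 that had a Fgf8 or Fgf17 UMI were too few for a list of leading genes. They were deeper than the other 2965, with medians of 19272 and 13535 UMIs, and their share was not told apart from background, as given above. Spry1 stood in them at 54.8 against 5.51 CPM, 9.93-fold (7.11 to 13.6), Etv4 at 17.5 against 2.35 CPM, 7.44-fold (4.02 to 12.8), and Dusp6 at 67.6 against 15.7 CPM, 4.30-fold (3.23 to 5.62). Etv5 was 2.24-fold (1.49 to 3.25) and Etv1 1.45-fold (1.03 to 1.99) higher, and Spry2 had a ratio of 1.31 (0.420 to 3.10). Among the area factors, Six3 stood at 30.3 against 0.330 CPM, Wnt3a at 14 against 0.703 CPM from 12 UMIs, and Sp8 at 4.66 against 0.769 CPM from 4 UMIs. Pax6 (0.713, 0.587 to 0.859), Nr2f1 (0.754, 0.630 to 0.895) and Lhx2 (0.735, 0.668 to 0.807) were slightly lower. Emx2 (1.08, 0.921 to 1.25), Dmrta2 (1.03, 0.853 to 1.23) and Nr2f2 (1.32, 0.872 to 1.92) spanned 1, and Bmp4 had 1 UMI.

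Outside the named excitatory classes and the Zic4/Otx2/Dlx1 cluster, Etv1 stood at 78.1 CPM (57.2 to 104.2) in the 74 GABAergic cells labelled E16, from 46 UMIs, against 32.4 CPM in radial glia of that library. It stood higher in the Calb1/Calb2/Lhx9 cluster of neurons labelled E16, at 134.1 CPM (124.7 to 144.1). Of the other 9 genes, Spry2 (27.0 CPM) and Dusp6 (16.8 CPM) were the only ones there above 10 CPM. The Etv1 UMIs were held by 140 of the 612 cells, with 5.35 UMIs per positive cell on average against 2.18 in radial glia of that library. Cells with at least 2 Etv1 UMIs, 101 in number, were set against the 472 cells with 0, a split chosen after the values were seen. Tfap2e stood at 170.8 against 1.85 CPM, Pou3f1 at 320.0 against 31.3 CPM and Foxp2 at 147.0 against 29.9 CPM. Mef2c (2.16 against 98.9 CPM), Nr2f2 (2.16 against 98.2 CPM) and Neurod6 (292.9 against 600.5 CPM) were lower. Dusp6 was at 35.7 and 12 CPM, 2.96-fold (1.85 to 4.67), in these cells, and Spry2 at 17.3 and 30.3 CPM.

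Beyond the 10 genes, a list of 73 pathway genes in 7 groups was read in radial glia. Between E16 and E14, 45 reached 5 CPM, of which 5 were at least 2-fold higher under E16 and 5 lower, where 2.42% and 7.47% of all genes were. Between E18 and E14 the counts were 4 higher and 2 lower of 45, beside 1.03% and 3.33% of all genes. Between E18 and E16 they were 1 and 1 of 44, beside 2.03% and 0.671%. None of the 10 other FGF ligands listed reached 5 CPM, and none of 14 signal relay genes passed 2-fold in any contrast. Each of the receptors Fgfr1 to Fgfr3 was also within 2-fold across libraries: Fgfr1 stood at 94.3, 61.4 and 62.8 CPM in label order, Fgfr2 at 67.2, 56.6 and 63.4 CPM, and Fgfr3 at 80.2, 104.4 and 99.8 CPM.

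Of the genes that passed, 5 of the 10 between E16 and E14 were receptors or co-receptors: Flrt3 and Gpc1 were higher, and Sdc3, Sdc2 and Fgfrl1 lower. Flrt3, a membrane protein that binds FGF receptors, was at 30.9, 148.3 and 85.9 CPM in label order, and Sdc3, a heparan sulfate proteoglycan, at 10.3, 1.75 and 1.08 CPM. Il17rd was at 2.40 CPM under E14 and 9.12 under E16, 3.79-fold (2.24 to 7.0), the same direction as Spry1 and Dusp6. Ccnd1, a cyclin of the G1 phase, was at 61.1, 252.0 and 43.7 CPM, and Myc at 17, 4.70 and 7.75 CPM. Pea15, an ERK-binding protein, was at 809.8, 223.3 and 405.5 CPM, and Emx2 was 2.05-fold (1.88 to 2.24) higher under E16 than E14. Fgf14, an intracellular homologue that is not secreted, was at 11.3, 14.7 and 38.0 CPM, and Phlda1 was 2.09-fold (1.74 to 2.53) higher under E18 than E14.

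Genes whose levels ran most like each of the 10 were sought among 11121 genes over 15 groups of at least 100 cells, by Pearson's r of log2 levels with 1 CPM added. These groups come from 3 libraries and share depth and clustering, so r is a description. For Fgf8 the closest were LOC102555023 (0.98), Fgf17 (0.97) and Pax3 (0.97), and for Fgf17 they were Galnt12, LOC108351167 and Fgf8. Among the groups, both ligands passed 5 CPM only in the Zic4/Otx2/Dlx1 cluster and the choroid plexus cells labelled E16. These r therefore rest mainly on those groups. Fgf15 ran with Gsx2 (0.98), a factor of GABAergic progenitors, Esm1 and Wfdc1. Those r rest on 1 group. Fgf15 stood at 29.4 CPM in the Zic4/Otx2/Dlx1 cluster labelled E16 and at or below 0.949 CPM in the rest. Within that cluster, Gsx2 stood at 28.3 CPM in cells with a Fgf15 UMI and 25.5 CPM in those without. GABAergic cells, fewer than 100 in each library, were not among the groups. Fgf18 and Dusp6 were each among the 3 genes most like the other (0.87), with Kctd12 first for Fgf18 and S100a10 first for Dusp6.

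The response genes had different companions. Spry1 ran with Lgr4 (0.96), LOC102555023 and Pax3, the last 2 of which were also closest to Fgf8. Spry2 ran with Lemd2 (0.88), Rps6ka2 and Arl4c. For Etv1 they were Smoc1 (0.91), Prdx6 and Ttc39c, for Etv4 Myl9 (0.90), Igfbp5 and Bcar3, and for Etv5 RGD1564664 (0.95), Slc22a23 and Lxn. No 2 of the 3 ETS factors shared a gene among these.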

How the data were processed

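The data are UMI counts from 3 single-cell libraries made with the 10x Genomics 3′ kit. The deposited values are raw UMI counts per gene and barcode, without normalization, and per the file headers the software was Cell Ranger 6.0.1. The build was mRatBN7.2 per the submitters' processing notes, and the annotation is not given in the sources used here. The labels' protocols also describe cultured, multiplexed and sorted human cells, which does not match primary rat cells.

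Scanpy 1.11.5 was used throughout, with its Scrublet scores to remove doublets at 0.8% per 1000 cells. Counts were scaled to 10000 per cell, and 2000 variable genes, without the 10 genes and the pathway list, gave 30 principal components and 15 neighbours for Leiden clustering (leidenalg 0.10.2, resolution 1, no integration). Clusters were named from 128 markers of 14 classes when at least 3, and at least 50% of those measured, were raised 1.2-fold in at least 20% of cells. That 50% rule and the fixed reference level were added after clusters had been seen. In 14 of 27 clusters over 90% of cells came from 1 library.

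CPM carry exact Poisson intervals, shares exact Clopper-Pearson intervals and ratios exact conditional intervals. A limit for a count of 0 is 3 counts of the total. The ratio code was tested on simulated data. TMM factors came from edgeR 4.0.16 in R 4.3.3, with no test, and alternatives are in the closing section. Python 3.11.15 was used.

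The 10 genes and all lists were chosen with earlier results of these data known. Genes were named by fixed rules: up to 3 largest rises and falls past 2-fold per contrast in radial glia with at least 5 CPM, area factors in ligand-positive cells, their 10 leading genes (5 CPM added, at least 20 CPM and 10 UMIs), and 3 most alike genes with at least 10 CPM in 1 group. Some area factors and layer genes are not reported here. Other genes named, such as Fgfr1 to Fgfr3, layer genes and the genes of Etv1 cells, were chosen after their values were seen.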

Additional observations from a re-analysis of the deposited data

Results flagged for a closer look

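Between the libraries labelled E18 and E14, 2 response genes with at least 5 CPM on average differed in opposite directions in different cell classes. Spry2 had a ratio of 0.20 in radial glia and 1.54 in newborn excitatory neurons. Etv1 had a ratio of 0.364 in radial glia, 0.815 in intermediate progenitors and 1.54 in newborn excitatory neurons. The newborn neuron value rests on few cells: 38 of 1328 held an Etv1 UMI under E14 and 42 of 1663 under E18. Positive cells held 1.18 and 2.31 UMIs on average, so UMIs per positive cell were higher under E18 but the share of positive cells was not. In maturing neurons, below that minimum, Etv1 had a ratio of 0.103 (0.0209 to 0.306). With values below the minimum, Dusp6 (0.479 in intermediate progenitors, 2.37 in newborn neurons) and Spry1 (2.84 in radial glia, 0.216 in maturing neurons) differed in opposite directions too. Between the labels E18 and E16, Spry2 had a ratio of 1.57 in radial glia and 0.734 in intermediate progenitors, and Etv1 had ratios of 1.63 and 0.692. When libraries were clustered separately, the log2 ratio of Spry2 in radial glia was -0.09 in place of 0.55, so its direction there turned. Within the intermediate progenitor clusters 3, 12 and 14, whose shares differ between libraries, the ratios for E18 over E16 were 0.927, 0.942 and 0.821 for Spry2, with intervals that all span 1, and 1.88, 0.672 and 0.577 for Etv1. For E18 over E14, those of Etv1 were 0.933, 0.860 and 0.592, of which the first 2 have intervals that span 1. The newborn neurons came mainly from clusters 8 and 13 under E14 and from clusters 5 and 6 under E18. Over whole classes the counting intervals lay on opposite sides of 1, and with 1 library per label the difference between classes was not tested.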

How the results depend on the processing

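With 1 library per label, no result has a replicate check, and no paired analysis was possible because no label has more than 1 sample. In radial glia, the ratios of Spry2, Etv1, Etv4 and Etv5 between E14 and each other library, and those of Dusp6 between E16 and the others, stayed past 2-fold in the same direction under 10 alternatives. The median log2 ratio of E16 over E14 (-2.07) became -2.51 with cells of at least 500 genes and at most 20% mitochondrial UMIs, -2.49 with at least 3000 genes and at most 5%, -1.12 with libraries clustered one by one and -1.34 with 5 CPM added. That of E18 over E16 (-0.31) became 0.40 with the looser filter, 0.14 at resolution 2, 0.03 with the stricter filter, 0.12 with Etv1 added and -1.49 with libraries clustered on their own, its sign turning under all of these but the last. Genes past 2-fold between E18 and E16 (1) numbered 3 with the looser filter and with separate clustering, 2 with no CPM minimum and 0 with a minimum of 20 CPM, where those between E16 and E14 (5) numbered 2. The percentage of radial glia labelled E16 with a UMI of Fgf8 or Fgf17 (0.369) was 0.0772 at resolution 2, 0.101 and 0.0954 with the looser and stricter filters, 0.0975 with no doublet removal, 0.131 with doublets removed at 2 times the rate, 1.51 with libraries clustered on their own and 1.33 with no thinning. Under E18 (0.0543) it was 0 with both filters and 0.157 with no doublet removal, above E16. Of 100 levels of the 10 genes in 4 classes, 53 stayed within their counting interval with the stricter filter. The causes were not tested. TMM scaling moved the median of all genes from -0.12 to 0.04 for E16 over E14, and changed no count by over 1.5 times.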
